A study of Mus musculus with 2 samples.

Results

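The Mir15-16 family of mouse is examined here in embryonic limb, through 6 hairpin genes taken by name from the 1973 miRNA genes that each deposited table lists. They form 3 clusters of 2. Mir15a and Mir16-1 lie together on chromosome 14, Mir15b and Mir16-2 on chromosome 3, and Mir195a and Mir497 on chromosome 11. Mir497 is not listed under its own name. It was read from the opposite-strand count of Mir497b, a gene annotated on the other strand of the same site. The data are small RNA counts from limb tissue of healthy B6NCrl mouse embryos at 11.5 days, in 2 biological replicates of 1 group. Each replicate pooled both sexes, from 109 embryos in replicate 1 and 88 in replicate 2. The labels give both the same donor identifier, do not say whether fore or hind limb was taken, and name no treatment and no other tissue or age.

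MicroRNAs are cut from hairpins in longer transcripts, and each hairpin can give a mature RNA from its 5′ arm and another from its 3′ arm. Mature miRNAs repress messenger RNAs that pair with their seed, the bases from position 2 to position 8. The miR-15/16 family is known for slowing the cell cycle, through targets such as cyclins D1 and E1, and for repressing the survival gene Bcl2. In human chronic lymphocytic leukaemia the cluster of MIR15A and MIR16-1 is often deleted. In the mouse heart, members of the family are known to restrain the division of cardiomyocytes after birth.

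The 5′ arms are shown to let the seeds and the differences beyond them be seen. They are RefSeq sequences on GRCm38.p6, written 5′ to 3′ with the seed in capitals. The RefSeq table held all 6 members by symbol.
miR-15a-5p: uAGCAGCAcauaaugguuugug
miR-15b-5p: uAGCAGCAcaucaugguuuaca
miR-497a-5p: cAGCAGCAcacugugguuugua
miR-16-5p: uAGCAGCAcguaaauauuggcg
miR-195a-5p: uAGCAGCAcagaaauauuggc
miR-322-5p: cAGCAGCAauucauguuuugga
miR-503-5p: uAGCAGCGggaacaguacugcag
The 6 members share the seed AGCAGCA, which 11 of the 1738 mature entries in the RefSeq table carry, or 0.633%. By matches over the whole arm, shared seed included, the arms were sorted into a miR-15 type and a miR-16 type. miR-497a-5p matched miR-15a-5p at 17 of 22 positions and miR-16-5p at 11 of 22. miR-195a-5p matched miR-16-5p at 19 of 21 positions and miR-15a-5p at 15 of 21. miR-15a-5p and miR-15b-5p matched at 18 of 22. The split is not sharp: miR-15a-5p and miR-16-5p matched at 16 of 22 positions, as did miR-15b-5p and miR-497a-5p. Sorted in this way, each cluster holds 1 arm of each type. miR-322-5p and miR-503-5p, from a cluster on chromosome X, are printed because they are the other detected miRNAs with the same bases 2 to 7; miR-503-5p departs at base 8.

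The arm miR-16-5p sets a limit on what could be counted, so the hairpins of Mir16-1 and Mir16-2 are printed with the longest stretch they share in capitals.
Mir16-1 (chr14:61631880-61631972, minus strand): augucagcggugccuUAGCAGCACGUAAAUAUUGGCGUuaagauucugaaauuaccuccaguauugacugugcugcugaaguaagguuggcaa
Mir16-2 (chr3:69009902-69009996, plus strand): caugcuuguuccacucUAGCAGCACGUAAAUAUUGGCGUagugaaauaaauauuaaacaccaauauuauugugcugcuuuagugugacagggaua
The shared stretch is 23 bases long and contains the whole of miR-16-5p, which has 22 bases. A read that lies inside it fits both loci and carries no sign of which one made it. The tables give multimapping reads a line of their own, so such a read is in neither gene's count if it was treated as multimapping; how the counter treated it is not given in the sources used here. That line held 24.7% of reads in replicate 1 and 23.4% in replicate 2, which is 51.1 and 48.6 times the counts of all 6 members. Which genes its reads belong to is not recorded, so the values of Mir16-1 and Mir16-2 below are counts of reads assigned to these loci and give no level of miR-16-5p. The 3′ arms, in contrast, differ between the loci.
miR-16-1-3p: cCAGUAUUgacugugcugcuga
miR-16-2-3p: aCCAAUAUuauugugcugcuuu
The counts join both arms of a hairpin, so the reads from these arms cannot be separated. The other 4 hairpins shared at most 16 bases with any of the 2201 other miRNA genes of the annotation, the 16 being those of Mir195a with Mir195b. Sites elsewhere in the genome were not searched.

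The clusters are compact and lie in different kinds of host. Coordinates are those of GENCODE M21 on the mm10 assembly, counted from 1. Mir15a (ENSMUSG00000093007.1, chr14:61632027-61632110) lies in an intron of the long noncoding gene Dleu2, and Mir16-1 (ENSMUSG00000092995.1) overlaps an annotated exon of the same gene, both on the minus strand. Mir15b (listed as ENSMUSG00000065580.1, in M21 ENSMUSG00000065580.2, chr3:69009772-69009835) and Mir16-2 (ENSMUSG00000065606.1) lie in an intron of Smc4 on the plus strand. Smc4 encodes a condensin subunit. Because the version of Mir15b differs, the interval counted for it may not be the one given here. Mir497 (chr11:70234717-70234800) and Mir195a (ENSMUSG00000065411.2, chr11:70235042-70235135) are on the plus strand, and M21 annotates no host gene over either. The hairpins are 54 bases apart on chromosome 14, 66 on chromosome 3 and 241 on chromosome 11. In each cluster the hairpin with the miR-15 type of arm comes before the one with the miR-16 type in the direction of transcription. Hairpin GC content ran from 36.8% for Mir16-2 to 61.9% for Mir497, with 54.3% for Mir195a and 40.6 to 45.2% for the remaining 3.

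**Figure D1:**
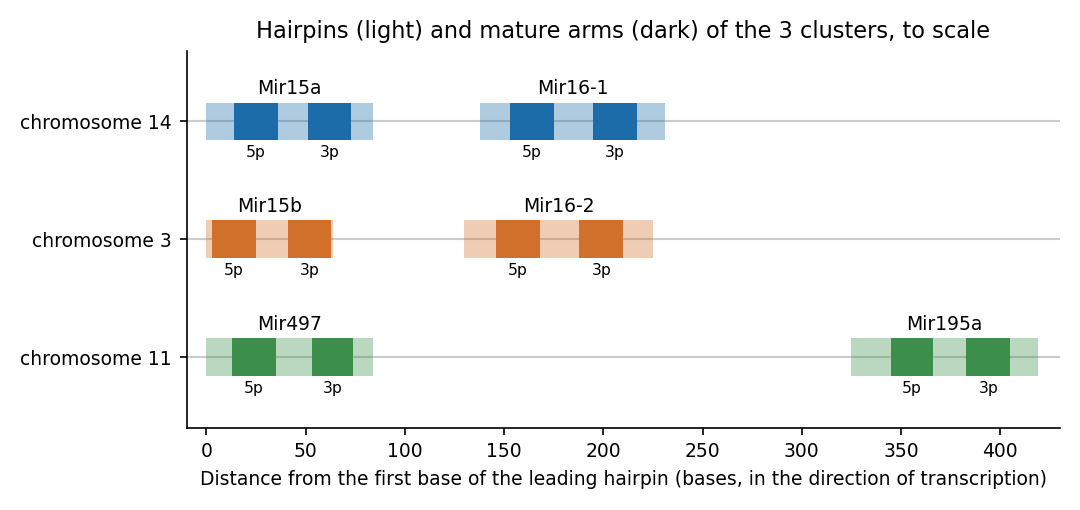
Hairpins (light bars) and mature arms (dark bars) of the clusters on chromosomes 14, 3 and 11, drawn to scale along the direction of transcription in bases from the start of the leading hairpin. Mir15a, Mir15b and Mir497 lead their clusters, and the gap to the following hairpin is 54, 66 and 241 bases.

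Sense counts of miRNA genes came to 2953085 in replicate 1 and 3459176 in replicate 2. Levels are given as counts per 1000000 of these (CPM), which allows up to 1.02 and 0.867 CPM for a count of 0. Markers of the labelled tissue were abundant in sum: the 9 miRNA genes of limb bud mesenchyme and the Hox clusters summed to 172327 and 167142 CPM. Singly they ran from Mir196a-1 at 45.0 and 43.1 CPM to Mir196b at 72172 and 68466 CPM. All 4 muscle and 6 of the 7 neural markers were listed, and they summed to 560 and 576 CPM and to 205 and 221 CPM. Mir206 held 528.6 and 551.9 CPM of the muscle sum, and Mir137 held 202.5 and 218.5 CPM of the neural sum. The muscle genes Mir1a-1 and Mir133a-1, and the neural genes Mir9-2, Mir124a-1, Mir124a-2 and Mir124a-3, were at 0 on the sense strand. Each of these hairpins shares 20 or more bases with 1 or 2 other miRNA genes, so their reads can be among the multimapping ones and a 0 sets no bound on these miRNAs. The liver marker Mir122 stood at 21.7 and 14.7 CPM. The 7 epithelial markers summed to 13177 and 15279 CPM, the endothelial marker Mir126a stood at 24254 and 24135 CPM, and the 2 erythroid markers summed to 367 and 481 CPM. The 3 white blood cell markers summed to 1284 and 1291 CPM and the 2 cartilage markers to 15935 and 14251 CPM. Of the white blood cell sum, 628 and 572 CPM were opposite-strand counts at Mir142b, read in place of Mir142. Mir142b itself was at 0 on the sense strand.

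All 6 members were detected, with at least 10 CPM in both libraries, as were 296 of the 1973 genes. Together their counts equalled 1.06% ± 0.04 of the sense counts (SD, n = 2), or 1.09% in replicate 1 and 1.03% in replicate 2. The Wilson 95% intervals, 1.08 to 1.10% and 1.02 to 1.04%, did not overlap. The opposite-strand counts of Mir497 are in this sum but not in the sense counts it is set against. The same holds for the share of the chromosome 11 cluster below. Mature arms of the members measured 21 or 22 bases, so counts were compared between members without a correction for length. How evenly library preparation captured different sequences was not measured or corrected for. Ratios between genes are therefore ratios of counts, and their counting errors do not cover this. In bulk tissue, fewer cells of a type and less RNA per cell cannot be told apart, which holds for all levels given here.

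Among the hairpins of the miR-15 type, Mir15a had the most counts. It had 14425 counts in replicate 1 and 15521 in replicate 2, which is 4885 and 4487 CPM. That put it at rank 43 of all listed genes by mean level. Its paralog Mir15b had 5958 and 7196 counts, or 2018 and 2080 CPM, and ranked 68. Mir497 had 2287 and 2700 counts, or 774 and 781 CPM, and ranked 108. The 3 genes kept this order in both libraries with no overlap. Mir15a exceeded Mir15b by 1.19 ± 0.12 log2 units (SD, n = 2), a mean ratio of 2.29-fold.

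Among the hairpins of the miR-16 type, Mir16-1 led in the counts assigned to it. Its 5988 and 6258 counts gave 2028 CPM in replicate 1 and 1809 CPM in replicate 2, at rank 70. Mir195a had 1953 and 2227 counts, or 661 and 644 CPM, at rank 114. Mir16-2 had 1577 and 1849 counts, or 534 and 535 CPM, at rank 122, the lowest of the 6 members. Mir16-1 exceeded Mir16-2 by 1.84 ± 0.12 log2 units, but both counts can miss reads of miR-16-5p, so this ratio describes the assigned reads.

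In order of mean level the members ran Mir15a, Mir15b, Mir16-1, Mir497, Mir195a and Mir16-2. Mir15b and Mir16-1 did not differ beyond their spread: Mir16-1 was ahead by 0.01 log2 units in replicate 1 and Mir15b by 0.20 in replicate 2. The other neighbours kept their order in both libraries. Mir497 stood 0.25 ± 0.04 log2 units above Mir195a, and the counting error of that ratio was 0.04 in each library. Mir195a stood 0.29 ± 0.03 above Mir16-2, with a counting error of 0.05 in each. With 2 libraries the smallest p that an exact sign-flip test of a ratio can give is 0.5, and no such test was made.

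**Figure D2:**
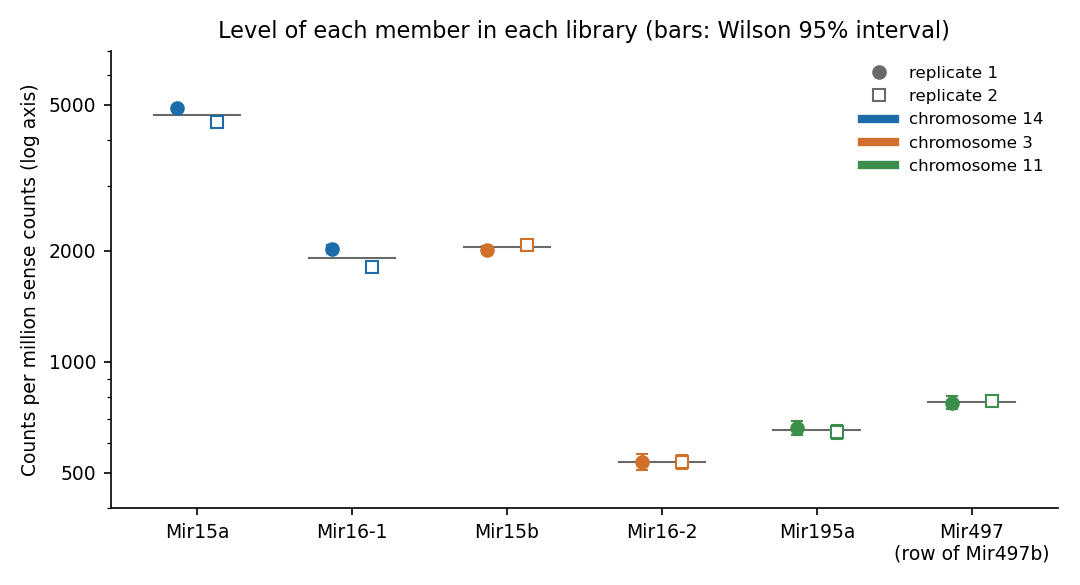
Level of each member in CPM (log axis) in replicate 1 (filled circles) and replicate 2 (open squares), with Wilson 95% intervals as bars and the mean as a line. Mir15a lies highest at 4885 and 4487 CPM, Mir15b and Mir16-1 overlap between 1809 and 2080 CPM, and Mir497, Mir195a and Mir16-2 lie between 534 and 781 CPM.

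Mir497 shows what the strand of a count decides. The row of Mir497b (ENSMUSG00000070109.2) held 2 counts on its own strand in each library, at or under the floor of 3 counts. The opposite strand held 2287 and 2700, so the own strand took 0.0801% of the row. The hairpin of Mir497b covers all 84 bases of Mir497. The other 5 members had 0 counts on the opposite strand in both libraries. Without the counts at Mir497b the family's share of the sense counts would be 0.984% ± 0.040, and the chromosome 11 cluster would rest on Mir195a alone.

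Compared as sums, the clusters ranked chromosome 14, then 3, then 11 in both libraries. The chromosome 14 cluster had 20413 counts in replicate 1 and 21779 in replicate 2, or 0.691% and 0.630% of the sense counts. The chromosome 3 cluster had 7535 and 9045 counts, or 0.255% and 0.261%. The chromosome 11 cluster had 4240 and 4927 counts, or 0.144% and 0.142%. Of the counts of all 6 members, the chromosome 14 cluster thus took 62.2% ± 1.8, the chromosome 3 cluster 24.4% ± 1.3 and the chromosome 11 cluster 13.5% ± 0.4 (SD, n = 2).

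The log2 ratio of the chromosome 14 cluster over the chromosome 3 cluster was 1.35 ± 0.12, a mean ratio of 2.55-fold. Over the chromosome 11 cluster it was 2.21 ± 0.09, or 4.61-fold. The chromosome 3 cluster stood 0.85 ± 0.03 above the chromosome 11 cluster, or 1.81-fold. With Mir16-1 and Mir16-2 left out, which leaves Mir15a for chromosome 14 and Mir15b for chromosome 3, the ratios were 1.19 ± 0.12, 1.71 ± 0.08 and 0.52 ± 0.04. The order of the clusters was the same in that form. Chromosome 11 kept both its genes there, so the ratios over it are smaller by construction.

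Within a cluster the hairpin with the 5′ arm of the miR-15 type had more counts, both arms joined, at all 3 loci. Mir15a exceeded Mir16-1 by 1.27 log2 units in replicate 1 and 1.31 in replicate 2. Mir15b exceeded Mir16-2 by 1.92 and 1.96. Mir195a was the lower of its pair, with a log2 ratio over Mir497 of −0.23 and −0.28. On chromosomes 14 and 3 these ratios involve a Mir16 gene, from whose count reads of miR-16-5p can be missing. On chromosome 11 neither hairpin shares a stretch of 20 bases with another annotated miRNA gene. The distance between the members of that cluster was the smallest of the 3. The clusters also differ in host, in spacing and in the strand column used for Mir497. Whether missing reads have a part in these distances was not tested.

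**Figure D3:**
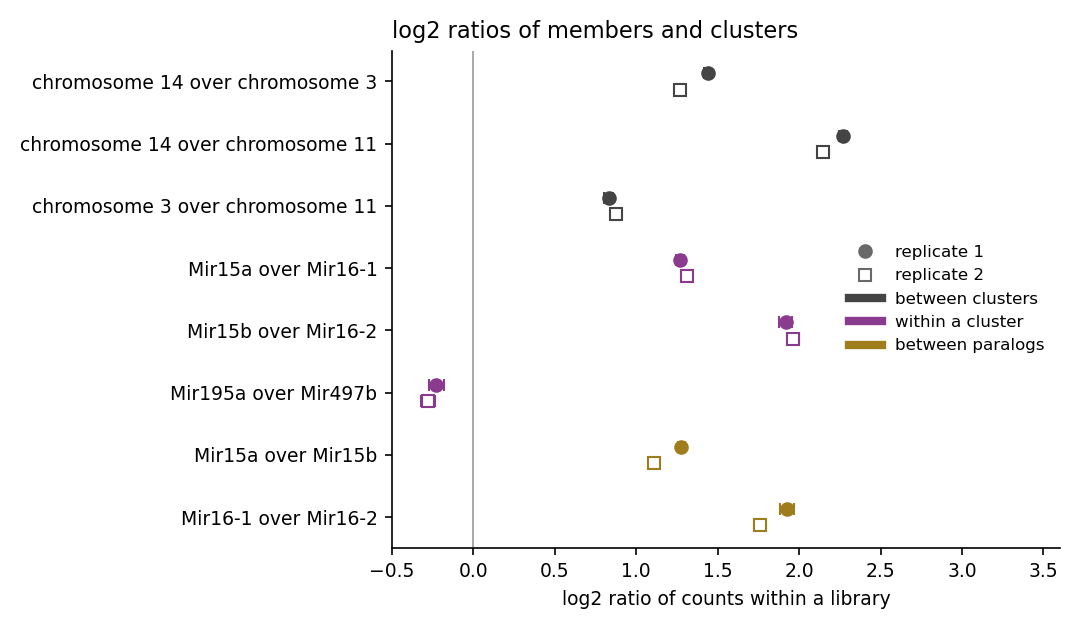
log2 ratio of counts within replicate 1 (filled circles) and replicate 2 (open squares), with counting error as bars, for cluster sums (grey), members of 1 cluster (purple) and paralogs (ochre); Mir497b stands for the counts of Mir497. The ratio of the chromosome 14 cluster over the chromosome 3 cluster is 1.44 and 1.27, while Mir15a over Mir16-1 is 1.27 and 1.31.

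Ratios within a cluster differed between the libraries by at most 0.05 log2 units, and ratios of the chromosome 14 cluster over the others by 0.12 to 0.17. The ratio of Mir15a over Mir16-1 was 0.04 log2 units lower in replicate 1 than in replicate 2, with a counting error of 0.03. The ratio of Mir15b over Mir16-2 was likewise 0.04 lower, with a counting error of 0.06. The ratio of Mir195a over Mir497 was 0.05 higher, with a counting error of 0.06. The ratio of the chromosome 14 cluster over the chromosome 3 cluster was 0.17 higher in replicate 1, with a counting error of 0.03. Over the chromosome 11 cluster it was 0.12 higher, with an error of 0.03. The ratio of chromosome 3 over chromosome 11 was 0.05 lower, with an error of 0.04.

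Both genes of the chromosome 14 cluster were higher in replicate 1. This was tested with a two-sided exact binomial test of each gene's counts against TMM-scaled library sizes, with Benjamini-Hochberg adjustment over all 423 genes with 10 or more counts. The test compares these libraries, not conditions. It called 2 of the 6 members, both higher in replicate 1. Of all tested genes it called 21.3%, with 11.8% higher in replicate 1. Of the 202 genes at 100 CPM or more it called 41.1%, so 2 of 6 members is no excess over that share. The members stand above that cutoff, at means of 534 CPM or more, and no share was taken for genes at their level. Mir15a was 1.10-fold higher in replicate 1, a log2 difference of 0.14 with a counting error of 0.02 (adjusted p = 9.49e-15, exact binomial test). Mir16-1 was 1.13-fold higher, a log2 difference of 0.18 with a counting error of 0.03 (adjusted p = 1.54e-10, exact binomial test). The typical gene at 100 CPM or more differed by 1.06-fold, and 55 of these 202 genes differed more widely than Mir15a and 31 more widely than Mir16-1.

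The remaining 4 members did not pass. Mir15b had a log2 difference of −0.03, Mir195a of 0.05, Mir16-2 of 0.01 and Mir497 of 0.00, with counting errors of 0.03 to 0.05 and adjusted p of 0.496 to 1.0 by the same exact binomial test. The signs of Mir16-2 and Mir497 turn with the scaling. The median over the 6 members was 0.03, beside 0.00 over all tested genes. An overdispersed form of the test, scaled to the median gene, called 11.3% of genes and the same 2 members. Scaled to the mean over genes it called 2.84% of genes and 0 members, also 0 at an unadjusted p under 0.05. The libraries differed elsewhere too: sums of the epithelial and erythroid markers, given above, were lower in replicate 1 than in replicate 2, and those of mesenchyme and cartilage were higher. All 7 epithelial markers had lower values in replicate 1, while the erythroid, mesenchyme and cartilage sums held members of both directions. Of the erythroid pair Mir451a stood at 331 and 451 CPM and Mir144 at 36.6 and 30.6 CPM. Of the cartilage pair Mir140 stood at 14609 and 12919 CPM and Mir455 at 1326 and 1333 CPM. Of the 9 mesenchyme and Hox markers Mir10a, Mir10b and Mir615 had lower values in replicate 1. Their part in the difference at Mir15a and Mir16-1 was not tested.

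**Figure D4:**
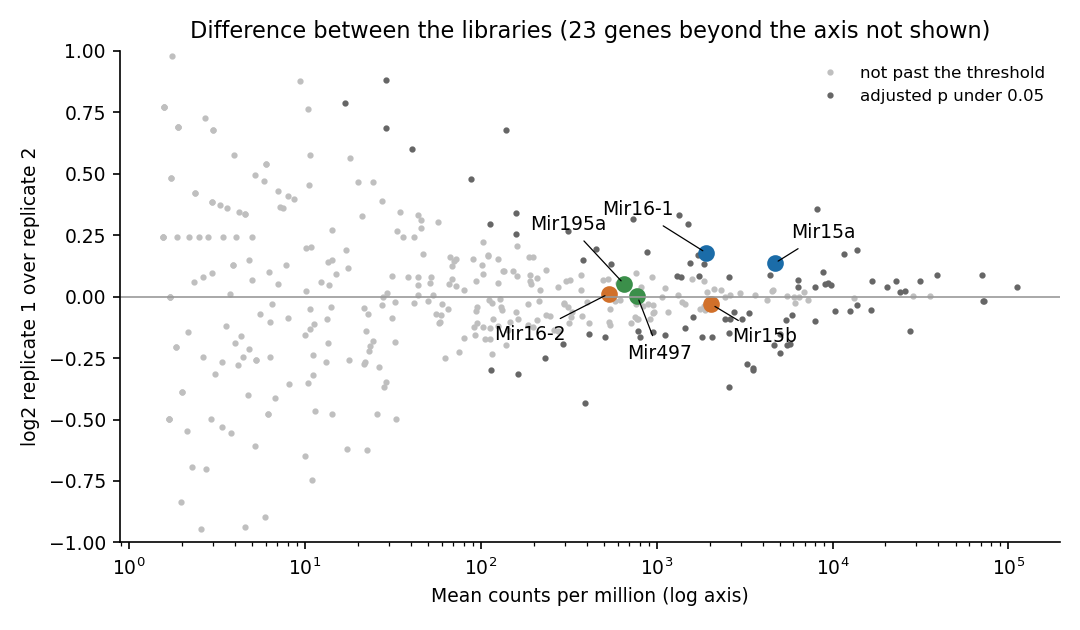
log2 ratio of replicate 1 over replicate 2 against mean CPM (log axis) for the tested genes, with members in colour by cluster and 23 genes beyond 1 log2 unit not drawn. Mir15a at 0.14 and Mir16-1 at 0.18 lie above 0, and the other 4 members lie between −0.03 and 0.05.

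Other genes carry the same seed, and 1 of them outweighed the family. The 6 members together stood at 10900 CPM in replicate 1 and 10335 in replicate 2, against 71826 and 73356 CPM for Mir322, the mouse counterpart of human MIR424. The log2 ratio of the 6 members over Mir322 was −2.77 ± 0.08, far beyond its counting error of 0.01. Mir503, the neighbour of Mir322, stood at 2643 and 2525 CPM, between Mir15a and Mir15b. Of all counts at genes with the 7-base seed, the 6 members made up 12.8% ± 0.6 and Mir322 the rest, 86.8% in replicate 1 and 87.7% in replicate 2. The remaining 4 genes with this seed in the RefSeq table, Mir195b, Mir6342, Mir6353 and Mir6419, had no count in either library. These shares leave out multimapping reads and join both arms of each hairpin, so they are shares of reads at seed-bearing genes and not of seed-bearing RNAs.

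**Figure D5:**
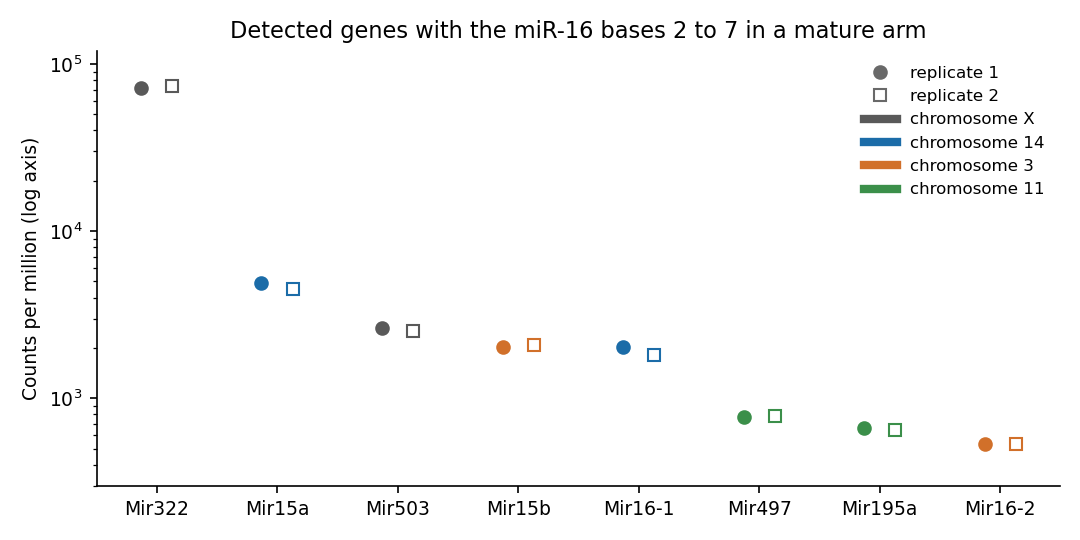
Level in CPM (log axis) of the 8 detected genes whose mature RNA carries bases 2 to 7 of miR-16-5p, in replicate 1 (filled circles) and replicate 2 (open squares), coloured by chromosome. Mir322 stands at 71826 and 73356 CPM, above Mir15a at 4885 and 4487 CPM and the other members.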

How the data were processed

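Small RNA (labelled as under 30 nt) was sequenced from 2 libraries of mouse limb. The authors deposited raw read counts per miRNA gene, 3 columns per library without a header; per the deposited text the assembly was mm10 and the annotation GENCODE M4. Aligner and counter: not given in the sources used here. For every gene, counts in the first column are those of the other 2 added up. The second held nearly all counts and was read as sense, the third as opposite strand, a reading that rests on the values. Lines for unmapped, multimapping, no-feature and ambiguous reads stayed out of library sizes and tests. They held 23.6%, 24.7%, 6.45% and 0 of the 6661559 reads of replicate 1, and 23.5%, 23.4%, 5.39% and 0 of the 7420829 of replicate 2.

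Genes were matched to GENCODE M21 by identifier without version, 1894 of 1973. CPM, shares and log2 ratios were computed within each library. Counting errors, floors (3 counts) and Wilson 95% intervals cover counting error only. The counts repeat no single library: chi-square over degrees of freedom was 19.0. Labels call the libraries biological replicates, yet give them 1 donor identifier. The exact binomial p-values set the difference between the 2 libraries against counting error alone and hold no estimate of the spread between samples. The exact binomial test used TMM factors from edgeR 4.0.16 and a prior count of 0.5 in log2 differences. edgeR's quasi-likelihood test was not used, because setting 1 library against the other leaves no replicate from which to estimate spread. Alternatives covered scaling (total counts, DESeq2 1.42.0 size factors), filter, strand, denominator, prior count and single libraries. The test was tested on simulated data. The simulated counts held counting error alone, as the exact binomial test assumes, so they do not check it against spread between libraries. The form scaled to the mean was not simulated. R 4.3.3 and Python 3.11.15 with scipy 1.17.1 were used.

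Named genes are the 6 members, genes with bases 2 to 7 of miR-16-5p, genes opposite a member, and each member's neighbours in level. Marker genes of the tissue check come from the marker lists, those at 0 or set apart being named after their values were seen, and host genes come from the annotation. Members and lists were chosen with earlier results of these data known.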

Additional observations from a re-analysis of the deposited data

How the results depend on the processing

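With all reads as denominator the share was 0.300% for the chromosome 14 cluster, 0.117% for chromosome 3, 0.0650% for chromosome 11 and 0.482% for all 6 members. With counts on both strands as denominator the chromosome 3 and 11 clusters held 0.253% and 0.140%. Without Mir16-1 and Mir16-2 the log2 ratios of cluster 14 over 3, 14 over 11 and 3 over 11 were 1.19, 1.71 and 0.52, by construction sums of fewer genes. The overdispersed test called 48 genes, and 12 when scaled to the mean, a form chosen after seeing the data, against 90 with the exact binomial test. With the mean form 0 members passed, against 2, and none was under 0.05 unadjusted. With total counts, the differences of Mir16-2 and Mir497 turned to −0.0013 and −0.011, and with both strands together Mir497's to −0.0048, all below counting error. Mir15a and Mir16-1 passed under every other alternative, at 0.12 to 0.14 and 0.16 to 0.18 log2 units. Single libraries gave shares of 0.630 to 0.691%, 0.255 to 0.261% and 0.142 to 0.144% for the clusters. Single libraries aside, the remaining alternatives moved no share or ratio by more than the spread between replicates. With 2 libraries each single one lies within 1 SD of the mean by construction, so it gives no check. No paired comparison of conditions was possible because the series holds a single group. Multimapping reads, which are in no gene's count, limit Mir16-1, Mir16-2 and the marker genes at 0 that share hairpin stretches with other genes.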

Other observations

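Among all listed genes, those directly above and below each member in mean level were as follows, as a description of levels over 2 libraries and with no pattern to correlate. Mir15a, at 4686 CPM, stood between Mir351 at 5000 CPM, from the cluster of Mir322, and Mir342 at 4652 CPM. Mir15b, at 2049 CPM, stood between Mir183 at 2071 CPM and Mir708 at 1932 CPM. Mir16-1, at 1918 CPM, stood between Mir708 and Mir181a-1 at 1874 CPM. Mir497, at 777 CPM, stood between Mir323 at 778 CPM and Mir148a at 766 CPM. Mir195a, at 653 CPM, stood between Mir421 at 714 CPM and Mir494 at 618 CPM. Mir16-2, at 534 CPM, stood between Mir370 at 539 CPM and Mir467c at 530.3 CPM.

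The ratio of the miR-15 type of hairpin over the miR-16 type differed between the chromosome 14 and chromosome 3 clusters. Mir15a over Mir16-1 was 0.65 log2 units below Mir15b over Mir16-2 in replicate 1 and also in replicate 2. Both denominators carry the shared miR-16-5p sequence, so the difference holds for the reads assigned to each locus.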
